A study of Mus musculus with 12 samples.

Results

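Polynucleotide phosphorylase (PNPase), encoded by *Pnpt1*, is an RNA-degrading enzyme of mitochondria, and this section describes *Pnpt1* together with 9 nuclear genes whose products act on the RNA that is copied from mitochondrial DNA (mtDNA). The 10 genes were taken by name from the table of 24453 genes, and all 10 were found there. They are *Pnpt1*, *Supv3l1* and *Rexo2* of RNA decay, *Lrpprc*, *Slirp* and *Mtpap* of messenger RNA stability and polyadenylation, *Fastkd2* and *Grsf1* of mitochondrial RNA granules, and *Elac2* and *Trmt10c* of transcript end processing. All 4 lines were mouse embryonic fibroblasts (MEFs) of strain C57BL6/J labelled Pnpt1 neo-flox/neo-flox, a genotype built with sites in both copies of *Pnpt1* at which Cre recombinase cuts out a piece of the gene, and the growth medium held 50 µg/mL uridine. TM6 is the untreated line with a working *Pnpt1*. The rho0 line, which lacks mtDNA per the labels, came from TM6 cells kept for 3 weeks with 750 ng/mL ditercalinium dichloride dihydrochloride and then grown from a single colony. PKO-1 and PKO-6 are PNPase knockout (PKO) lines, each grown from a single colony of TM6 cells after transduction with an adenovirus that expresses Cre, which per the study's methods removes the flanked piece. Each line was cultured and sequenced 3 times, giving 12 libraries of total RNA depleted of ribosomal RNA. The rho0 line is 1 colony and the knockout is represented by 2 colonies, so the p-values below measure the spread between cultures of one line and not between independent derivations.

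Mitochondrial DNA is transcribed as long precursors from both strands, and the tRNAs lying between the messages mark where the precursors are cut. RNase P, which contains TRMT10C, cuts on the 5′ side of a tRNA and ELAC2 cuts on its 3′ side. LRPPRC and SLIRP form a complex that keeps the freed messages stable, MTPAP adds their poly(A) tails, and GRSF1 and FASTKD2 gather new RNA in granules beside the mtDNA. Spent and antisense RNA is removed by PNPase working with the SUV3 helicase (*Supv3l1*), and REXO2 digests the short fragments that remain. RNA copied from mtDNA itself was not analysed here, and every value below is the level of a nuclear transcript.

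The libraries held 47164860 to 67991378 counts, and a single ribosomal RNA precursor, *Rn45s*, took 12.2% to 19.6% of them. Of 18752 genes with any count, 14026 passed the filter on low counts, including all 10 described here, whose lowest normalized read count in any library was 1083. A normalized read count is the count of a library after scaling all libraries to a common depth. The collagens *Col1a1* and *Col1a2* and the fibroblast genes *Vim* and *Fn1* each had a mean of at least 38369 normalized counts in every line, though *Col1a1* ran from 182206 in TM6 to that value in PKO-6. Other fibroblast genes also had unequal means. *Col3a1* was at 4765 in TM6, 476 in rho0, 7011 in PKO-1 and 329 in PKO-6. *Pdgfrb* was at 6986 in TM6, 2530 in rho0, 3001 in PKO-1 and 1542 in PKO-6. *S100a4* was at 23368 in TM6, 6178 in rho0, 28584 in PKO-1 and 7942 in PKO-6. *Fn1* was higher in every derived line, at 237872 in rho0, 259106 in PKO-1 and 208419 in PKO-6 against 113270 in TM6. The part of these markers in the results was not tested. *Thy1* was at 0 to 4.99 normalized counts in all libraries. The epithelial gene *Epcam* had a mean of 88.0 in PKO-6 against at most 8.15 in the other lines. The other epithelial gene looked at, *Cdh1*, stayed at or below 10.4 in every library. Markers of leukocytes (*Ptprc*), endothelium (*Pecam1*, *Cdh5*) and glia (*Sox10*) stayed at or below 14.9 in every library. In RNA from a bulk culture, fewer cells with a transcript and less transcript per cell cannot be told apart. In this text a gene rose or fell in a comparison if its adjusted p (edgeR's quasi-likelihood test, Benjamini-Hochberg over the 14026 genes) was below 0.01 and its log2 fold change exceeded 0.5 in size, the limits used in the study. The study applied them to moderated fold changes of DESeq2 and not to edgeR's estimates, so numbers of called genes are not comparable with its own. Values after ± are SDs over 3 libraries unless named as standard errors (SEs).

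*Pnpt1* (chromosome 11, positions 29130751 to 29161828 of GRCm38, plus strand) is listed with 1 transcript of 2704 bases in 28 exons. The piece of the gene that Cre removes is in exon 2, and the exact ends of the removed piece are not given in the sources used here. Exon 2 is shown because it bears on how the counts of the knockout lines can be read. It lies at chr11:29132845-29132905, is coding and has 61 bases, which leaves a remainder of 1 when divided by 3. The first line gives exon 2 in capitals between 15 bases of exon 1 and 15 bases of exon 3 in lower case, and the second gives the junction that would form if all of exon 2 were absent (GENCODE transcript, plus strand, 5′ to 3′).
Pnpt1 exon 2 in place: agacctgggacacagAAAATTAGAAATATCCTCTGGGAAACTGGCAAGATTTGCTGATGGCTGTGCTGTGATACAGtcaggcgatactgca
Pnpt1 exon 1 joined to exon 3: agacctgggacacagtcaggcgatactgca
In the reference the reading frame runs for 783 codons before its stop. With exon 1 joined to exon 3 the first stop in frame is codon 60, 7 codons past the last whole codon of exon 1. Exon 2 makes up 2.26% of the transcript, so a gene count would hardly move if this exon alone were missing from the RNA, and the counts below report the rest of the transcript. Whether the *Pnpt1* RNA of the knockout lines lacked exon 2 could not be read from gene counts. The study itself reported by PCR of genomic DNA that its knockout clones had lost the flanked exon 2. It also reported that PNPase protein was undetectable by immunoblot in PKO-1 and PKO-6.

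*Pnpt1* RNA rose in rho0, which lacks mtDNA and keeps *Pnpt1*, and fell in both knockout clones. The normalized read counts of *Pnpt1* were 2832, 3242 and 3320 in the TM6 libraries, 5051, 5251 and 5510 in rho0, 1254, 1191 and 1276 in PKO-1, and 1897, 1720 and 2214 in PKO-6. No library of any line overlapped with one of another line, and all 6 pairs of lines passed the test. The mean was 3131 ± 262 in TM6 and 5271 ± 230 in rho0, a log2 fold change of 0.75 (SE 0.083, adjusted p = 2.09e-06) or 1.68-fold. PKO-1 had 1240 ± 44.3 and fell by 60.4% from TM6 (log2 fold change -1.34, SE 0.086, adjusted p = 1.25e-08). PKO-6 had 1944 ± 250 and fell by 37.9% (log2 fold change -0.69, SE 0.084, adjusted p = 5.53e-06). The libraries labelled as knockouts therefore still held *Pnpt1* transcript at a level well above the filter, and the lower count goes with their label in both clones. The clones differed from each other, with PKO-1 below PKO-6 by 0.65 on the log2 scale (95% interval 0.46 to 0.83, adjusted p = 1.92e-05). Against rho0, which like them lacks mtDNA, *Pnpt1* was lower by 2.09 in PKO-1 (adjusted p = 2.41e-10) and by 1.44 in PKO-6 (adjusted p = 1.15e-08). The study treated PKO-1 and PKO-6 as one group. With their 6 libraries as one group, the log2 fold change was -0.98 against TM6 (SE 0.18, adjusted p = 0.000836) and -1.73 against rho0 (SE 0.18, adjusted p = 4.25e-05). In that fit the spread within the PKO group includes the gap between the clones, and the rise of *Pnpt1* in rho0 had an adjusted p = 0.0116 there, so that this call was lost while its log2 fold change stayed at 0.75. The median log2 fold change of the 1140 tested genes on chromosome 11 was 0.01 in rho0, 0.04 in PKO-1 and -0.06 in PKO-6, so the median of the chromosome stayed near 0.

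**Figure D1:**
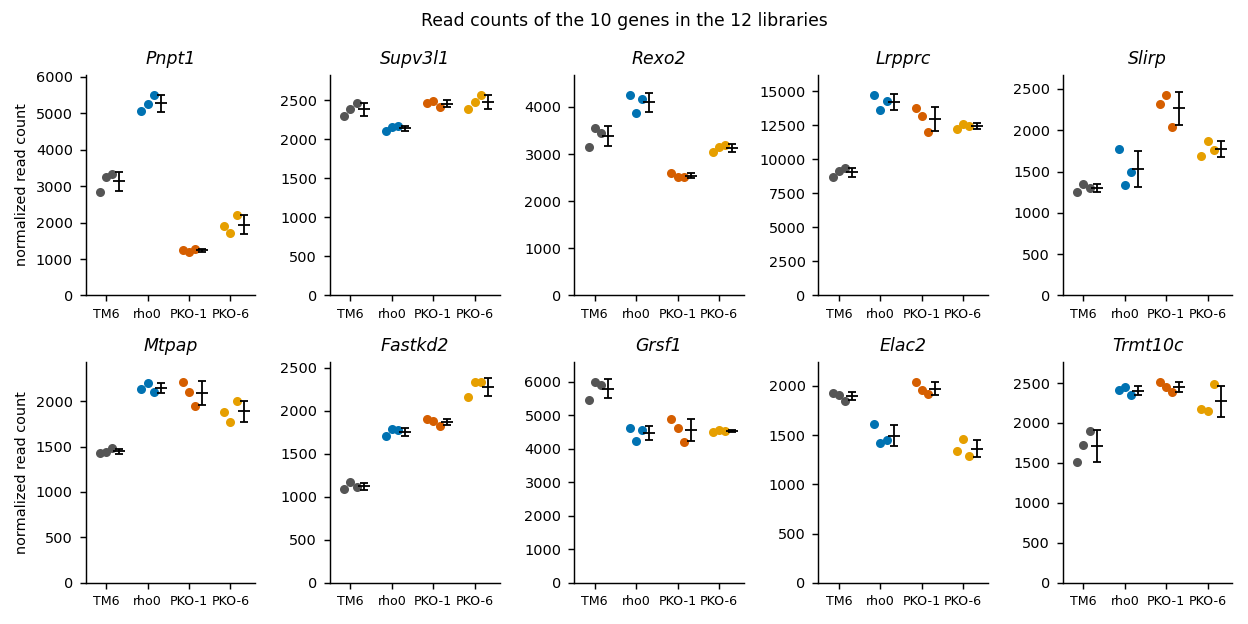
Normalized read counts (vertical axes, starting at 0) of the 10 genes in the 3 libraries of TM6, rho0, PKO-1 and PKO-6. Each point is a library, and the bar beside each group is the mean with its SD. *Pnpt1* separates all 4 lines, from a mean of 1240 in PKO-1 to 5271 in rho0, whereas *Supv3l1* lies between 2106 and 2569 in every library.

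*Supv3l1* (chromosome 10, 62429378 to 62449693), which encodes the helicase that unwinds RNA for PNPase, had 2294 to 2467 normalized counts in TM6, 2106 to 2165 in rho0, 2413 to 2492 in PKO-1 and 2383 to 2569 in PKO-6. The TM6 and knockout libraries overlapped and those of rho0 lay below all others. Its log2 fold change against TM6 was 0.04 in PKO-1 (95% interval -0.06 to 0.15, adjusted p = 0.416) and 0.06 in PKO-6 (95% interval -0.04 to 0.16, adjusted p = 0.291). In rho0 the value was -0.15 (95% interval -0.25 to -0.05, adjusted p = 0.00956), below the fold limit and close to the chromosome 10 median of -0.18. By level the order was PKO-6, PKO-1, TM6 and rho0, and the test did not separate the first 3. In the deposited annotation 279 exonic bases of *Supv3l1* are shared with 4930507D05Rik on the opposite strand, which had 55.8 to 155 normalized counts.

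*Rexo2* (chromosome 9, 48468514 to 48480611) encodes the enzyme that digests the shortest RNA fragments. It had 3149, 3556 and 3448 normalized counts in the TM6 libraries, 4260, 3869 and 4168 in rho0, 2603, 2518 and 2509 in PKO-1, and 3036, 3140 and 3192 in PKO-6. The rho0 libraries were above and the PKO-1 libraries below all others, while TM6 and PKO-6 overlapped, so the order of the lines was that of *Pnpt1* with the middle pair not separated (adjusted p = 0.0753). No comparison with TM6 passed the fold limit, with log2 fold changes of 0.28 in rho0 (adjusted p = 0.000463), -0.41 in PKO-1 (adjusted p = 1.82e-05) and -0.12 in PKO-6, which was -0.20 without TM6 replicate 1. Against rho0, *Rexo2* fell by 0.69 on the log2 scale in PKO-1 (SE 0.056, adjusted p = 1.45e-07) and was lower by 0.39 in PKO-6 (adjusted p = 4.69e-05). The 776 tested genes of chromosome 9 had a median of -0.39 in PKO-1 against TM6 and -0.44 against rho0, against 0.01 in PKO-6 against TM6. With that median taken off, the *Rexo2* difference between PKO-1 and rho0 was -0.25, under the limit, and the part of the chromosome in the result was not tested.

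Of the genes of messenger RNA stability and tail addition, *Lrpprc* and *Mtpap* rose in rho0 and PKO-1 and *Slirp* rose in PKO-1. *Lrpprc* (chromosome 17, 84705247 to 84790786), whose product binds mitochondrial messages, had 8707, 9134 and 9372 normalized counts in the TM6 libraries, against 14769, 13637 and 14309 in rho0, 13758, 13218 and 12043 in PKO-1, and 12227, 12636 and 12490 in PKO-6. Every library of the derived lines exceeded every TM6 library. *Lrpprc* rose 1.57-fold in rho0 (log2 fold change 0.65, SE 0.058, adjusted p = 2.46e-07) and 1.43-fold in PKO-1 (0.52, SE 0.058, adjusted p = 2.91e-06). In PKO-6 it was higher by 0.46 (adjusted p = 7.79e-06), just under the fold limit. The call in PKO-1 was lost with DESeq2's Wald test (0.497) and in 12 further alternatives of 20. Chromosome 17 had medians of 0.25 in rho0 and 0.20 in PKO-1, and with these taken off the values were 0.40 and 0.32, so that both calls were lost. Between the derived lines the order was rho0, PKO-1 and PKO-6, with neighbours that the test did not separate (adjusted p = 0.0605 and 0.364).

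*Slirp* (chromosome 12, 87443896 to 87449924) encodes the small RNA-binding partner of LRPPRC, and its order was another one. It had 1257, 1355 and 1299 normalized counts in the TM6 libraries, 1769, 1332 and 1500 in rho0, 2322, 2430 and 2041 in PKO-1, and 1682, 1875 and 1756 in PKO-6. PKO-1 was above all other lines, and TM6 and rho0 overlapped. Against TM6, *Slirp* rose in PKO-1 (log2 fold change 0.80, SE 0.093, adjusted p = 4.56e-06), with values under the fold limit of 0.44 in PKO-6 (adjusted p = 0.000727) and 0.24 in rho0 (adjusted p = 0.0359), which was 0.10 without rho0 replicate 1. It also rose in PKO-1 against rho0 (0.56, SE 0.092, adjusted p = 0.000129), a call that was lost without rho0 replicate 2 (0.46), and the value of PKO-1 over PKO-6 was 0.36 (adjusted p = 0.00416). The 491 tested genes of chromosome 12 stood at a median of 0.55 in rho0, 0.56 in PKO-1 and 0.53 in PKO-6 against TM6. Taken relative to that median, *Slirp* was at -0.32 in rho0, 0.24 in PKO-1 and -0.09 in PKO-6, so that the direction turned in rho0 and PKO-6 and the call in PKO-1 was lost. Of its 419 bases, 122 are shared with the opposite-strand gene *Nrp* (65.9 to 287 normalized counts) and 15 with *Snw1* (3669 to 6457).

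*Mtpap* (chromosome 18, 4375592 to 4397330), the mitochondrial poly(A) polymerase, had 1425, 1436 and 1479 normalized counts in the TM6 libraries, 2130, 2203 and 2096 in rho0, 2212, 2098 and 1952 in PKO-1, and 1882, 1775 and 2001 in PKO-6. All 9 libraries of the derived lines lay above those of TM6. *Mtpap* rose in rho0 (log2 fold change 0.57, SE 0.058, adjusted p = 1.04e-06) and in PKO-1 (0.53, SE 0.058, adjusted p = 2.68e-06), and the value in PKO-6 was 0.38 (adjusted p = 4.43e-05). Chromosome 18 stood at a median of 0.42 in rho0, 0.42 in PKO-1 and 0.34 in PKO-6 over 381 tested genes. Relative to these medians *Mtpap* was at 0.14, 0.11 and 0.04, below the limit in every line.

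Of the granule genes, *Fastkd2* was the one member that rose in all 3 derived lines, while *Grsf1* was lower in all of them without reaching the fold limit. *Fastkd2* (chromosome 1, 63730625 to 63753385), needed for assembly of the large mitochondrial ribosomal subunit, had 1083, 1166 and 1118 normalized counts in the TM6 libraries, 1699, 1786 and 1778 in rho0, 1902, 1876 and 1824 in PKO-1, and 2158, 2330 and 2333 in PKO-6. No libraries of different lines overlapped. The rise was 1.56-fold in rho0 (log2 fold change 0.64, SE 0.051, adjusted p = 7.87e-08), 1.66-fold in PKO-1 (0.73, SE 0.051, adjusted p = 2.84e-08) and 2.03-fold in PKO-6 (1.02, SE 0.051, adjusted p = 5.91e-10). These comparisons share the TM6 libraries. PKO-6 exceeded PKO-1 by 0.28 (adjusted p = 0.000247) and PKO-1 against rho0 missed the threshold (0.09, 95% interval -0.02 to 0.20, adjusted p = 0.132). Chromosome 1 had medians of 0.11, 0.18 and 0.21 in rho0, PKO-1 and PKO-6, and the 3 calls held with these taken off, at 0.53, 0.55 and 0.81.

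*Grsf1* (chromosome 5, 88659233 to 88676171), which encodes an RNA-binding protein that marks the granules, had 5467, 6001 and 5905 normalized counts in the TM6 libraries, 4618, 4238 and 4551 in rho0, 4887, 4609 and 4220 in PKO-1, and 4508, 4577 and 4540 in PKO-6. TM6 was above the other 9 libraries, which overlapped one another. The log2 fold change against TM6 was -0.37 in rho0 (95% interval -0.50 to -0.24, adjusted p = 7.30e-05), -0.34 in PKO-1 (95% interval -0.47 to -0.21, adjusted p = 0.000192) and -0.35 in PKO-6 (95% interval -0.48 to -0.22, adjusted p = 0.000124). With the chromosome 5 medians taken off these were -0.16, -0.43 and -0.41. No pair of derived lines passed the test, and the 95% intervals of their differences reached at most 0.16 from 0. *Grsf1* is the one gene here listed with 2 transcripts, of 2425 and 2753 bases. The shorter one took 4.63%, 8.23% and 12.6% of the gene's counts in the TM6 libraries, 2.56%, 13.6% and 11.9% in rho0, 22.6%, 30.5% and 23.8% in PKO-1, and 7.63%, 1.5% and 17.7% in PKO-6. All PKO-1 libraries were above all other libraries in this share. The split between transcripts is an estimate by the counting program and ranged widely within PKO-6, and the share was given no test.

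Of the end-processing genes, *Trmt10c* was higher in all derived lines and *Elac2* separated the knockout clones. *Trmt10c* (chromosome 16, 56033720 to 56037774) encodes the tRNA methyltransferase subunit of RNase P. It had 1510, 1720 and 1902 normalized counts in the TM6 libraries, 2410, 2457 and 2346 in rho0, 2514, 2452 and 2388 in PKO-1, and 2177, 2146 and 2493 in PKO-6, with TM6 below all other libraries. *Trmt10c* rose in PKO-1 (log2 fold change 0.52, SE 0.078, adjusted p = 4.79e-05), and the values were 0.49 in rho0 (adjusted p = 6.52e-05) and 0.41 in PKO-6 (adjusted p = 0.000309). The call in PKO-1 was lost in 11 of 20 alternatives, DESeq2's Wald test (0.497) and the chromosome 16 median taken off (0.36) among them. The value in rho0 passed the limit without TM6 replicate 3 (0.57). No pair of derived lines passed the test, with 95% intervals of their differences between -0.25 and 0.28.

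*Elac2* (chromosome 11, 64979035 to 65002076), the enzyme that trims the 3′ side of tRNAs, had 1929, 1903 and 1849 normalized counts in the TM6 libraries, 1615, 1416 and 1446 in rho0, 2040, 1961 and 1914 in PKO-1, and 1339, 1462 and 1290 in PKO-6. The lines formed an upper pair of PKO-1 and TM6 and a lower pair of rho0 and PKO-6, each overlapping within itself (adjusted p = 0.429 and 0.0926). *Elac2* rose in PKO-1 relative to PKO-6 (log2 fold change 0.53, SE 0.062, adjusted p = 5.75e-06), a call that was lost without PKO-6 replicate 3, where the value was 0.495, and with the chromosome 11 median taken off (0.40). Against TM6 the values were -0.34 in rho0 (adjusted p = 0.000222), 0.06 in PKO-1 (95% interval -0.08 to 0.19, adjusted p = 0.429) and -0.47 in PKO-6 (adjusted p = 1.12e-05). The last passed the limit with only the compared lines fitted (-0.505), without any single rho0 library and without PKO-6 replicate 2 (-0.56). *Elac2* shares 38 exonic bases with *Arhgap44* on the opposite strand, which had 498 to 990 normalized counts.

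**Figure D2:**
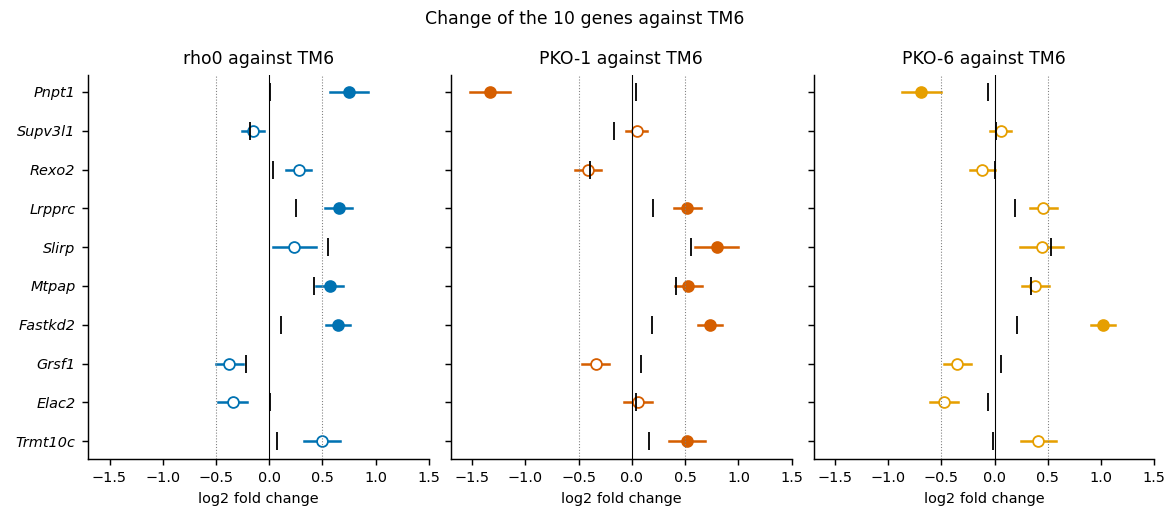
Log2 fold change (horizontal axes) of the 10 genes in rho0, PKO-1 and PKO-6 against TM6, with 95% intervals as lines. Filled points passed the test, dotted lines mark the fold limit of 0.5, and the upright tick in each row is the median of all tested genes on the gene's chromosome. *Pnpt1* lies at 0.75, -1.34 and -0.69, and *Slirp* and *Mtpap* lie near their chromosome ticks in PKO-6.

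Counted over the 10 genes, 4 rose and 0 fell in rho0 against TM6, where 42.1% of all tested genes were called (20.7% higher, 21.4% lower). In PKO-1 against TM6, 5 rose and 1 fell, beside 34.3% of all genes (16.4% higher, 17.9% lower). In PKO-6 against TM6, 1 rose and 1 fell, beside 41.3% of all genes (21.9% higher, 19.4% lower). The numbers of called genes among the 10 are thus 4, 6 and 2, and near or below the background in rho0 and PKO-6. Without the fold limit the counts were 9, 8 and 8, beside 62.1%, 54.3% and 61.0% of all tested genes. The 3 TM6 libraries did not overlap with those of rho0 for 9 of the 10 genes, of PKO-1 for 8 and of PKO-6 for 8, against 72.8%, 71.8% and 71.9% of all tested genes. The median log2 fold change of the 10 genes was 0.38 in rho0, 0.29 in PKO-1 and 0.22 in PKO-6, against 0.02, 0.00 and 0.01 over all tested genes. These values are not corrected for chromosome. The medians of the chromosomes that hold the 10 genes ran from -0.21 to 0.55 in rho0, -0.39 to 0.56 in PKO-1 and -0.06 to 0.53 in PKO-6. With chromosome medians taken off, 2 of the 10 were called in each derived line, and the part of the chromosomes in the medians was not tested. In that setting only the fold change was shifted, and the adjusted p stayed that of the unshifted test. In PKO-1 the calls of *Lrpprc*, *Mtpap* and *Trmt10c* lay at 0.52, 0.53 and 0.52. The count of 6 went to 3 when TM6 replicate 1, any single rho0 library, PKO-6 replicate 1 or PKO-6 replicate 2 was left out, and these are the calls that were lost. DESeq2's Wald test gave 4 calls in PKO-1.

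Among the derived lines, in PKO-1 against rho0, 3 were called (*Pnpt1* and *Rexo2* lower, *Slirp* higher), where 32.7% of all tested genes were. In PKO-6 against rho0 the 1 call was *Pnpt1*, beside 21.5% of all genes. The clones differed in 2 genes, *Pnpt1* and *Elac2*, beside 29.1% of all genes. With both clones in one group, 3 genes were called against TM6 (*Pnpt1* lower, *Slirp* and *Fastkd2* higher), beside 25.7% of all genes, and 2 against rho0 (*Pnpt1* and *Rexo2* lower), beside 10.7%. The *Slirp* call against TM6 (log2 fold change 0.63, adjusted p = 0.00189) was lost without TM6 replicate 1 and without TM6 replicate 3. With the chromosome 12 median taken off it was at 0.07. The *Rexo2* call against rho0 was lost with the chromosome 9 median taken off, where the value was -0.33.

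Ratios within a library do not depend on the scaling between libraries. The ratio of *Pnpt1* to *Supv3l1* counts, the enzyme and its helicase, was 1.23, 1.36 and 1.35 in the TM6 libraries, 2.40, 2.44 and 2.54 in rho0, 0.51, 0.48 and 0.53 in PKO-1, and 0.80, 0.69 and 0.86 in PKO-6. No libraries of different lines overlapped, and *Pnpt1* counts exceeded those of *Supv3l1* in TM6 and rho0 and not in the knockout clones. The mean log2 ratio differed from TM6 by 0.91 in rho0, by -1.38 in PKO-1 and by -0.75 in PKO-6. The ratio of *Lrpprc* to *Slirp* counts was 6.93, 6.74 and 7.21 in TM6, 8.35, 10.2 and 9.54 in rho0, 5.92, 5.44 and 5.90 in PKO-1, and 7.27, 6.74 and 7.11 in PKO-6. It was above TM6 in rho0, below TM6 in PKO-1 and overlapped with TM6 in PKO-6 (log2 difference 0.02, exact permutation p = 0.800). Each of the other 11 comparisons of lines over both ratios gave an exact two-sided permutation p = 0.1, the smallest that 3 against 3 libraries allow, and 0.109 after Benjamini-Hochberg adjustment over the 12. The ratios were not corrected for chromosome. Relative to its chromosome medians *Lrpprc* was at 0.40 in rho0, 0.32 in PKO-1 and 0.26 in PKO-6, and *Slirp* at -0.32, 0.24 and -0.09. On that scale the *Lrpprc* value was above that of *Slirp* in every derived line. In PKO-1 the gap was smaller than the SE of the *Slirp* fold change (0.093). These gaps were not tested.

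**Figure D3:**
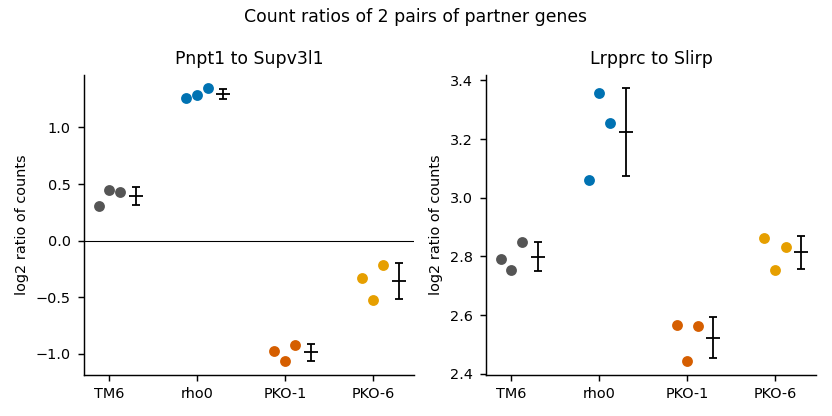
Log2 ratio of the counts of *Pnpt1* to *Supv3l1* (left) and of *Lrpprc* to *Slirp* (right) in each library of the 4 lines, with the mean and SD beside the points. The vertical axes do not start at 0 on the right. The first ratio is highest in rho0 (mean 1.30) and lowest in PKO-1 (mean -0.99), and the second runs from 2.52 in PKO-1 to 3.22 in rho0.

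Levels of different genes were compared as normalized counts per kilobase of transcript and per 1000000 counts of the library. The length was that of the whole transcript, 419 bases for *Slirp* and 1075 for *Rexo2*, with no correction for the length of the sequenced fragments. The order of genes of unlike length depends on this measure. In TM6 the highest of the 10 were *Rexo2* at 55.8 ± 3.48 and *Slirp* at 55.2 ± 2.07, followed by *Grsf1* at 37.7 ± 1.98 and *Lrpprc* at 34.8 ± 1.29, and the lowest was *Fastkd2* at 6.21 ± 0.23. On this scale *Pnpt1* was the fifth in TM6 at 20.5 ± 1.72, slightly above its helicase gene *Supv3l1* at 17.7 ± 0.64. It was the fourth in rho0 at 34.6 ± 1.51, the seventh in PKO-6 at 12.7 ± 1.64 and the lowest in PKO-1 at 8.13 ± 0.29. In PKO-6 *Mtpap* at 12.6 ± 0.76 and *Fastkd2* at 12.6 ± 0.55 lay within the SD of *Pnpt1*, so their order is not resolved. *Slirp* led in both knockout clones, at 95.8 ± 8.52 in PKO-1 and 74.9 ± 4.12 in PKO-6.

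**Figure D4:**
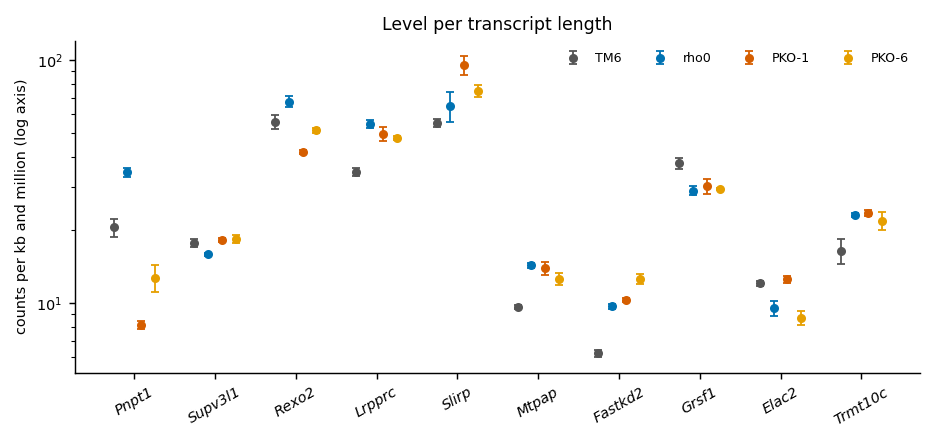
Normalized counts per kilobase of transcript and per 1000000 counts (vertical log axis) of the 10 genes in TM6, rho0, PKO-1 and PKO-6, as means with SD over 3 libraries. *Pnpt1* runs from 8.13 in PKO-1 to 34.6 in rho0, and *Slirp* reaches 95.8 in PKO-1.

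The 5 genes whose pattern over the 12 libraries was nearest to that of *Pnpt1* were *Pdzd4*, *Hmox1*, *Ank1*, *Sv2a* and *Nid1*. Nearness was the root mean square difference of log2 normalized counts after each gene's mean was taken off, among 11204 genes with a mean of at least 100. It was 0.19 for *Pdzd4* and 0.29 for *Nid1*, against a median of 0.85 over all ranked genes. *Pdzd4* had means of 527 ± 22.8 normalized counts in TM6, 855 ± 51.2 in rho0, 240 ± 10.0 in PKO-1 and 404 ± 3.56 in PKO-6. *Hmox1*, the heme-degrading oxygenase, had 3057 ± 82.6, 4254 ± 352, 1212 ± 46.9 and 1393 ± 34.3 in the same order. None of the 5 lies on chromosome 11. Among the other 9 genes of the set, *Rexo2* came nearest, at 0.54 and rank 206, and *Slirp* was farthest, at 1.04 and rank 9398.

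A further 42 genes that process, modify or degrade mitochondrial RNA were all tested. In rho0, 15 rose and 2 fell (40.5%), in PKO-1, 8 rose and 6 fell (33.3%), and in PKO-6, 9 rose and 2 fell (26.2%), all against TM6, beside 42.1%, 34.3% and 41.3% of all tested genes. Their median log2 fold change was 0.37, 0.09 and 0.16. In all 3 comparisons, which share the TM6 libraries, 6 of the 42 were called. *Prorp*, *Nsun3*, *Alkbh1*, *Trmt61b* and *Tfb1m* were higher and *Trmt2b* was lower. Of these, *Prorp* and *Alkbh1* lie on chromosome 12 and *Trmt2b* on chromosome X, whose medians are set beside them below. *Trmt61b* and *Tfb1m* lie on chromosome 17, with medians of 0.25, 0.20 and 0.19 in rho0, PKO-1 and PKO-6. In PKO-6 their values of 0.60 and 0.55 exceeded that median by less than the fold limit. The same held for *Tfb1m* in rho0 (0.74) and *Trmt61b* in PKO-1 (0.59). The 4 further genes of RNA decay gave 2 calls in rho0, for *Lactb2* (0.89, SE 0.085, adjusted p = 5.36e-07) and *Endog* (0.72, SE 0.18, adjusted p = 0.00289), and 0 in either clone.

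RNase P can be followed as a whole, since its subunits other than TRMT10C are encoded by *Prorp* (listed as 1110008L16Rik), the nuclease, and *Hsd17b10*, a dehydrogenase that holds TRMT10C. *Prorp* had 573 ± 10.8 normalized counts in TM6 and rose to 1016 ± 40.9 in rho0 (log2 fold change 0.83, SE 0.059, adjusted p = 2.60e-08), 975 ± 8.86 in PKO-1 (0.77, SE 0.059, adjusted p = 7.81e-08) and 1111 ± 46.3 in PKO-6 (0.96, SE 0.059, adjusted p = 4.83e-09). *Hsd17b10* went the other way, from 2203 ± 61.0 in TM6 to 1606 ± 204 in rho0 (-0.46, adjusted p = 0.000798), 1471 ± 167 in PKO-1 (-0.58, adjusted p = 0.000127) and 1503 ± 134 in PKO-6 (-0.55, adjusted p = 0.000161), so that it fell in the clones and was under the fold limit in rho0. *Prorp* lies on chromosome 12, with medians of 0.53 to 0.56, and *Hsd17b10* on chromosome X, where the 462 tested genes had medians of -0.75 in rho0, -0.74 in PKO-1 and -0.87 in PKO-6. These chromosome X medians lay further below 0 than *Hsd17b10* in each line, so relative to them its direction turned. *Prorp* stood above its chromosome medians by less than the fold limit in each line, so relative to them no call was left. The part of the chromosomes in these results was not tested.

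Of the 12 genes of tRNA modification, 7 (58.3%) were called in each derived line, beside 42.1%, 34.3% and 41.3% of all tested genes in rho0, PKO-1 and PKO-6. In rho0, 6 rose and 1 fell, in PKO-1, 4 rose and 3 fell, and in PKO-6, 6 rose and 1 fell. These calls are not corrected for chromosome. With chromosome medians taken off, the whole set of 42 gave 14, 7 and 3 calls in rho0, PKO-1 and PKO-6. The 12 genes thus gave at most 3 in PKO-6, and the part of the chromosomes in the group's share was not tested. *Nsun3*, which starts the formylcytosine modification of the mitochondrial methionine tRNA, rose from 137 ± 10.6 normalized counts in TM6 to 344 ± 54.1 in rho0 (log2 fold change 1.33, SE 0.13), 218 ± 30.7 in PKO-1 (0.67, SE 0.13) and 264 ± 8.28 in PKO-6 (0.94, SE 0.13). *Alkbh1*, which acts on the same tRNA base, rose by 1.29, 0.53 and 0.81 in these lines and lies on chromosome 12, whose median of 0.56 in PKO-1 its value there did not exceed. *Osgepl1*, of the threonylcarbamoyl modification, rose in rho0 (0.51, adjusted p = 0.000562) and fell in PKO-1 (-0.52, adjusted p = 0.000716). *Trmt2b*, a methyltransferase gene on chromosome X, fell by 0.68 in rho0, by 0.58 in PKO-1 and by 0.79 in PKO-6 on the log2 scale. The chromosome X medians lay further below 0 than *Trmt2b* in each line, so relative to them its direction turned.

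In the group of ribosomal RNA modification and granules, 4 of 14 genes rose in rho0, 1 rose and 1 fell in PKO-1, and 1 rose in PKO-6. These are 28.6%, 14.3% and 7.14% of the group, below the 42.1%, 34.3% and 41.3% of all tested genes. *Tfb1m*, the methyltransferase of the small ribosomal RNA, rose from 294 ± 17.3 normalized counts in TM6 to 489 ± 18.2 in rho0, 564 ± 49.6 in PKO-1 and 430 ± 5.22 in PKO-6. It lies on chromosome 17, whose medians are given above. Of the 7 genes of stability and the FASTK family, to which *Fastkd2* also belongs, *Fastkd1* rose in rho0 (0.63) and PKO-6 (0.80), *Ptcd3* rose in PKO-1 (0.63), *Fastkd3* fell in PKO-1 (-0.84) and *Fastkd5* fell in rho0 (-0.66). *Ptcd3* lies on chromosome 6, whose PKO-1 median of 0.21 it exceeded by less than the fold limit. *Fastkd3* lies on chromosome 13 and stood below its PKO-1 median of -0.27 by more than the limit.

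**Figure D5:**
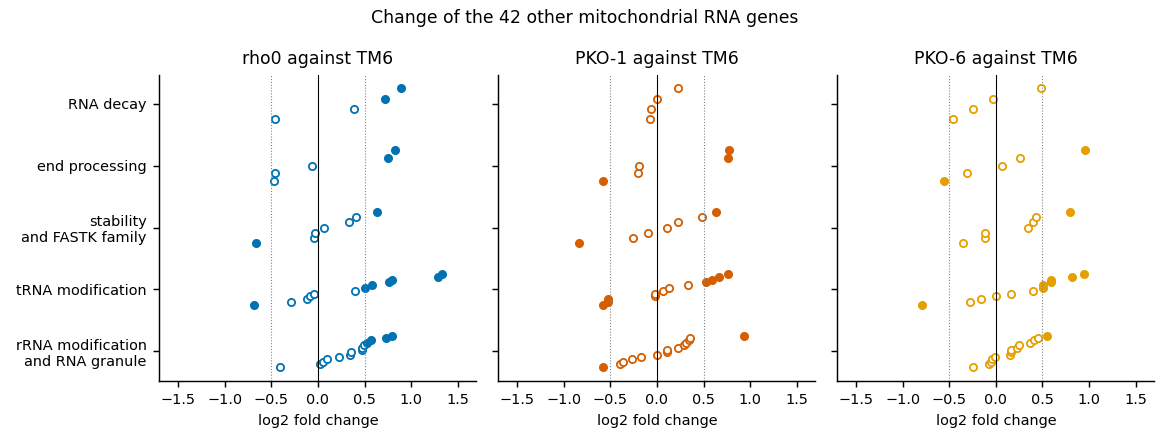
Log2 fold change (horizontal axes) of the 42 other mitochondrial RNA genes in rho0, PKO-1 and PKO-6 against TM6, one point per gene, grouped by role. Filled points passed the test and dotted lines mark the fold limit of 0.5. Filled points number 17, 14 and 11, with 7 of the 12 tRNA modification genes among them in each line. Chromosome medians are not taken off in this figure, and doing so left 14, 7 and 3 calls among the 42 genes.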

How the data were processed

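Total RNA of 12 cultures (3 each of TM6, rho0, PKO-1 and PKO-6) had been depleted of ribosomal RNA, made into strand-specific libraries in technical duplicates that were merged, and sequenced in pairs. Per the labels and the study's methods, the authors filtered reads with bcl2fastq, aligned them to RefSeq transcripts of mm10/GRCm38 and estimated counts with RSEM 1.2.25. The deposited values used here are these expected counts per gene and per transcript, and 12.5% of the gene values had decimals. The RSEM strand setting is not given in the sources used here, so reads of overlapping opposite-strand genes cannot be told apart. Counts were rounded and tested in R 4.3.3 with edgeR 4.0.16 (TMM scaling, filterByExpr with a minimum count of 10, quasi-likelihood test, Benjamini-Hochberg adjustment over 14026 genes), with all 12 libraries in 4 lines, or in 3 groups with both knockout clones as PKO. The biological coefficient of variation was 0.084 with 4 lines and 0.25 with 3 groups. The same steps were tested on simulated data. Transcript sums matched the gene table within 0.04 counts. Sequence came from GENCODE vM21, of the files' build. Depth limits the precision little here, since each of the 10 genes had at least 1083 normalized counts in every library, and intervals cover these cultures only. Alternatives were DESeq2 1.42.0 and its size factors, no filter, a replicate block, fitting only the compared lines, other fold limits, chromosome medians taken off and each library left out. Chromosome medians were taken off the log2 fold changes only, and the adjusted p stayed that of the unshifted test. The text names the 10 genes, the 42 others and the 5 genes nearest to *Pnpt1*. Genes, lists and tests were chosen with earlier results of these data known. Per-transcript TPM and FPKM columns were not used.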

Additional observations from a re-analysis of the deposited data

Results flagged for a closer look

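*Pnpt1* and *Elac2* were singled out because the knockout clones differed in them by a direct test of PKO-1 against PKO-6 (edgeR's quasi-likelihood test). The log2 fold change was -0.65 for *Pnpt1*, lower in PKO-1 in 3 of 3 libraries (adjusted p = 1.92e-05), and 0.53 for *Elac2*, higher in PKO-1 in 3 of 3 libraries (adjusted p = 5.75e-06). Over the 6 knockout libraries taken as one group, none of the 10 genes had a library that stood apart by Dixon's criterion, the largest gap being 0.43 of the range for *Grsf1*, under the critical value.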

How the results depend on the processing

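The 41 fold changes followed here (the 10 genes against TM6 in 3 lines, and those called in other comparisons) were recomputed 835 times. In 751 the direction and the side of the limits were kept, in 60 a call was lost, in 19 one was gained and in 5 the direction turned. *Pnpt1* kept its call against TM6 in PKO-1 and against rho0 in both clones under every alternative run. The direction turned for *Slirp* in rho0 (-0.32) and PKO-6 (-0.091) and for *Supv3l1* in rho0 (0.023) once chromosome medians were taken off, and for *Supv3l1* without TM6 replicate 1, with single libraries left out giving -0.012 to 0.072 in PKO-1 and -0.0045 to 0.081 in PKO-6. A replicate block gave 4, 6 and 2 called genes in rho0, PKO-1 and PKO-6 against TM6 and changed no call. Same-numbered libraries had correlations of -0.56 to 0.48, over 0.1 in 10 of 18 pairs, and 3 of 12 libraries correlated best with their own number, so the numbers were not taken as pairs. For the 10 genes, adjusted p alone gave 9 calls in rho0 and 8 in PKO-6 against TM6, 5 in PKO-1 and 4 in PKO-6 against rho0, 5 between the clones and 7 in PKO against TM6. A limit above 1 gave 0, 1 and 1 calls in rho0, PKO-1 and PKO-6 against TM6, 1 in PKO-1 against rho0, 0 between the clones, 0 in PKO against TM6 and 1 in PKO against rho0. Chromosome medians taken off left 2 in rho0, 2 in PKO-1, 1 between the clones and 1 in PKO against rho0. For the 42 other genes, adjusted p alone gave 32, 24 and 23 calls in rho0, PKO-1 and PKO-6, the limit of 1 gave 2, 0 and 0, and chromosome medians taken off gave 7 in PKO-1 and 3 in PKO-6. With single libraries left out the calls among the 10 ranged from 3 to 6 in PKO-1 against TM6 and from 1 to 2 between the clones. The causes of the losses with single libraries left out were not tested. Of the 6 ratio differences from TM6, the others kept their sign with single libraries left out, and that of *Lrpprc* to *Slirp* in PKO-6 ranged from -0.0071 to 0.048.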
